A study of Sus scrofa with 6 samples.

Results

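Integrins, laminins, collagens, thrombospondins and fibronectin were examined at the level of mRNA in IPEC-J2 cells, a non-transformed epithelial line from the piglet small intestine. Members were taken by the gene symbol in the deposited table, namely the integrin alpha and beta subunits whose symbol goes on with a number or V, the laminin chains, the collagen chains, the numbered thrombospondins and FN1. Alpha subunits named by another letter, such as ITGAL and ITGAM, the leukocyte partners of ITGB2, and COMP, a thrombospondin by another name, are thus outside it. The rule matched 77 of 31908 Ensembl pig gene IDs. Of these, ITGB1BP1 and ITGB1BP2 matched only by the start of their name, being integrin-binding proteins, so that 75 genes were counted in 6 families: 13 integrin alpha subunits, 8 integrin beta subunits, 10 laminin chains, 39 collagen chains, 4 thrombospondins and fibronectin. The CON group (n = 3) was given PBS, and the CDCA group (n = 3) was treated with chenodeoxycholic acid, a primary bile acid, at 50 μM, both for 24 h. All 6 libraries came from the same line, without a genetic change. The study calls the 3 libraries of a group biological replicates, but how the cultures were separated is not given in the sources used here, so the p-values measure the spread between these libraries.

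Epithelial cells rest on a basement membrane, a sheet of laminin trimers and collagen IV to which they hold through integrins, receptors made of an alpha and a beta subunit. In epithelia that anchor with hemidesmosomes, the integrin α6β4 and the transmembrane collagen XVII bind a laminin that contains the LAMA3 and LAMB3 chains, which is also laid down by cells that spread or migrate. Fibronectin is bound by α5β1 and by integrins that contain αv, and thrombospondins are secreted proteins that modulate adhesion and the activation of TGF-beta.

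Values are transcripts of a gene per 1000000 transcripts (TPM), which are scaled per length, so that levels can be compared between genes. Unless an SE is named, an error is the SD over the 3 libraries of a group. No read counts per gene were given, so the reads behind a value cannot be worked out from the table, and in bulk RNA fewer cells of a type and less RNA per cell cannot be told apart. The listed rows summed to between 351770 and 366073 TPM per library, well short of 1000000, so that transcripts may be missing from the table and levels and family shares may be incomplete. Of 16 genes that every cell uses, picked after seeing the data, 5 had means under 10 TPM. Of these, EEF2, a translation elongation factor, was listed at 0 in 2 CON libraries and at 2.81 to 5.18 TPM in the other 4 libraries, and PPIB was at no more than 0.12 TPM in any library. A low or zero value here therefore says only how a gene is listed, not that it is absent from these cells. The 13 mRNAs encoded by mtDNA held 13.8% to 15.0% of that sum in CON and 2.90% to 3.45% in CDCA, and calls of the named genes that changed when these genes were left out of the totals are given below beside the gene. Among epithelial markers, KRT8 averaged 226 TPM and EPCAM 122 TPM in CON, whereas CDH1 (0.397 TPM) and VIL1 (0.357 TPM), the latter a marker of the intestinal brush border, were weakly listed. Of 8 stromal markers, VIM was abundant (1986 TPM in CON), and the other 7 were all under 1 TPM, with a summed level of 1.35 to 1.83 TPM in CON and 1.00 to 1.15 TPM in CDCA. COL1A1, COL1A2 and COL3A1 are counted both among these 7 and among the collagens.

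Of the 75 genes, 26 reached a mean of 1 TPM over the 6 libraries and were compared by limma on log2(TPM + 1), along with every other gene at that level. In what follows, a gene rose or fell where its false discovery rate (FDR) was under 0.05, and was called higher or lower where its log2 fold change was also over 1 in size. ITGB3 was called higher, against 3.51% of all 8708 tested genes called higher, and THBS1 and LAMB2 were called lower, against 3.90% called lower. By the FDR alone, 12 of the 26 members rose, against 29.3% of all tested genes, and 7 fell, against 23.9%. The median log2 fold change of the 26 members was 0.17, compared with 0.05 over all tested genes. Leaving the mtDNA-encoded genes out of the library totals shifted the median of all genes by -0.13, and then 10 members rose and 10 fell. The CDCA libraries all lay above the CON libraries for 13 of the 26 members, against 33.7% of all tested genes, and all below for 7, against 27.8%.

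**Figure D1:**
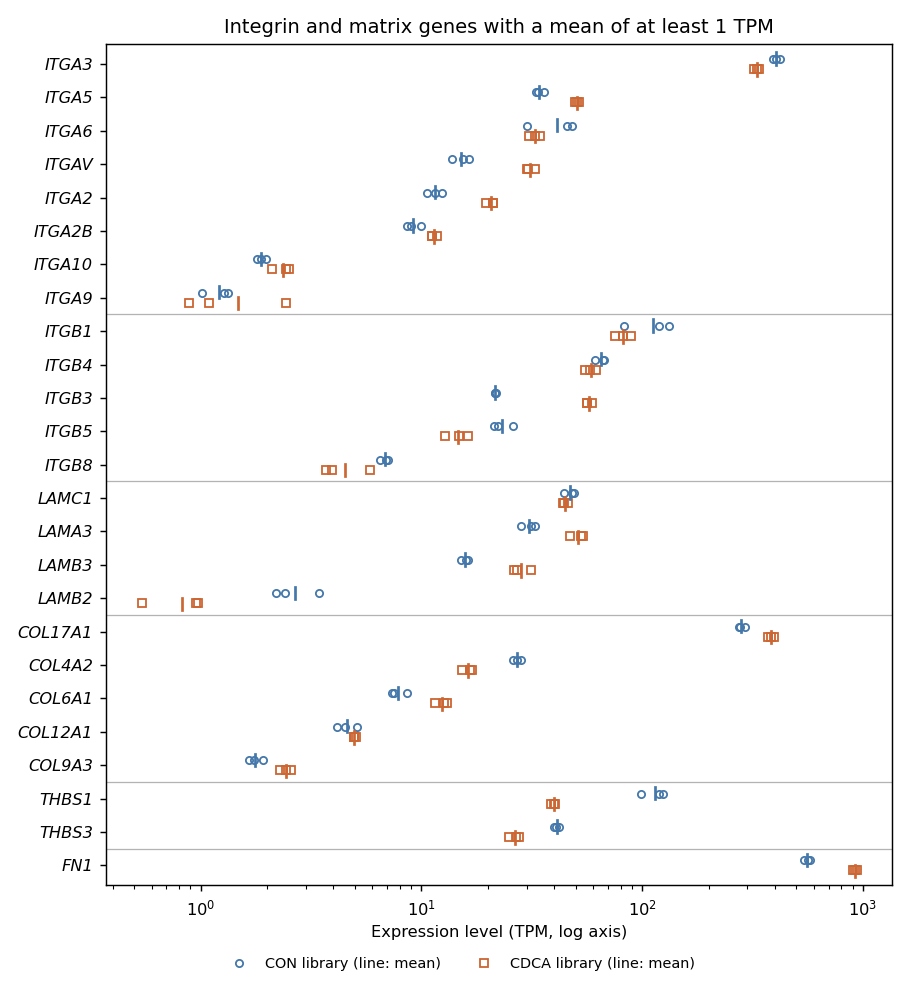
Expression level in TPM (log axis) of the tested members described in the text in each library, grouped by family, with circles for CON, squares for CDCA and a line for each group mean. FN1, ITGA3 and COL17A1 had the highest levels, and the groups lay furthest apart for THBS1, LAMB2 and ITGB3.

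THBS1, a secreted matricellular protein that binds CD47 and CD36 and can activate latent TGF-beta, had the largest fall of the 26 members on the log2(TPM + 1) scale. Its level was 119, 125 and 99.3 TPM across the CON libraries and 40.0, 40.5 and 38.8 TPM across the CDCA libraries. The lowest CON library lay well above the highest CDCA library, and the CDCA libraries were close to each other. The mean in CDCA was 0.347 of that in CON, and the log2 fold change was -1.50 (SE 0.09, FDR 2.9e-05). THBS1 has only 1 listed row. THBS3, a pentameric thrombospondin, fell less, from 40.0, 42.1 and 40.8 TPM to 26.9, 27.6 and 24.9 TPM (log2 fold change -0.61, SE 0.05, FDR 0.00014). Its 2 most abundant rows both fell, to 0.591 and 0.665 of their CON means. Within a library, THBS1 was 2.43 to 2.98 times as abundant as THBS3 in CON and 1.47 to 1.56 times in CDCA, a ratio that the scaling of the library does not touch. THBS2 never exceeded 0.02 TPM and THBS4 was listed at 0 in every library. Summed over the family, thrombospondin mRNA went from 155 ± 13.9 TPM to 66.2 ± 2.29 TPM.

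FN1, the secreted glycoprotein that assembles into fibrils around cells, was the most abundant member. It rose from 562, 577 and 541 TPM in CON to 938, 924 and 900 TPM in CDCA, with no overlap between the groups. The ratio of the means was 1.64 and the log2 fold change 0.72 (SE 0.04, FDR 2.1e-05), under the limit for a call. Both rows with values above 0 were higher in CDCA, but not to the same extent: the ratio was 1.46 for the more abundant row and 2.10 for the other. The minor row made up 28.5% ± 0.47 of FN1 in CON and 36.3% ± 1.1 in CDCA. The table gives no transcript IDs, so the splice form of either row is not known. With FN1 higher and THBS1 lower, the ratio of FN1 to THBS1 went from 4.62 to 5.46 in the CON libraries to between 22.8 and 23.5 in the CDCA libraries.

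Among the integrin beta subunits, ITGB3 had the largest change. ITGB3 pairs with αv into a receptor for fibronectin, vitronectin and other ligands. Its level was 21.7, 21.6 and 21.5 TPM in the CON libraries and 56.3, 56.2 and 59.4 TPM in the CDCA libraries. The 3 CON values were nearly identical, and every CDCA value lay far above them. The ratio of means was 2.65, with a log2 fold change of 1.36 (SE 0.04, FDR 3.5e-06). ITGB5, another partner of αv, fell from 26.0, 22.2 and 21.4 TPM to 12.8, 14.8 and 16.2 TPM (log2 fold change -0.63, SE 0.11, FDR 0.0026). ITGB3 and ITGB5 were thus at similar levels in each CON library, with a ratio of 0.837 to 1.01, whereas in the CDCA libraries ITGB3 was 3.66 to 4.41 times as abundant as ITGB5. ITGB8, the αv partner that binds latent TGF-beta, went from 6.53, 7.03 and 6.91 TPM to 5.86, 3.71 and 3.92 TPM (log2 fold change -0.53, FDR 0.022). That fall was less firm, since the FDR lay between 0.060 and 0.069 without CON replicate 2, CON replicate 3, CDCA replicate 2 or CDCA replicate 3.

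ITGB1, the common partner of most alpha subunits, and ITGB4, the hemidesmosomal subunit, were the most abundant beta subunits in CON. The CON libraries held 133, 119 and 83.0 TPM of ITGB1 and the CDCA libraries 82.1, 75.1 and 89.0 TPM. CON replicate 3 lay with the CDCA libraries, so that the groups overlapped, and the difference did not pass the test (log2 fold change -0.41, FDR 0.080). Without CON replicate 3, the log2 fold change of ITGB1 was -0.61 with an FDR of 0.0030, and with the mtDNA-encoded genes left out of the totals it was -0.57 with an FDR of 0.028. It was -0.28 (FDR 0.20) without CON replicate 1 and -0.36 (FDR 0.19) without CON replicate 2. Of 14 alternative fits, 3 gave ITGB1 an FDR under 0.05. ITGA6, the alpha partner of ITGB4, was also low in CON replicate 3, with 48.2, 45.5 and 30.1 TPM in CON against 34.5, 30.7 and 32.7 TPM in CDCA. Its log2 fold change was -0.30 (FDR 0.18), and -0.51 (FDR 0.0018) without CON replicate 3. It was -0.18 (FDR 0.42) without CON replicate 1 and -0.22 (FDR 0.39) without CON replicate 2. Of 14 alternative fits, 1 gave ITGA6 an FDR under 0.05. ITGB4 averaged 64.9 ± 3.34 TPM in CON and 58.4 ± 3.19 TPM in CDCA (log2 fold change -0.15, FDR 0.069). For ITGB4 the FDR was 0.045 without CON replicate 2 and 0.0091 with the mtDNA-encoded genes left out of the totals. It was 0.155 without CON replicate 1 and 0.168 without CON replicate 3. Of 14 alternative fits, 5 gave ITGB4 an FDR under 0.05, and the highest FDR was 0.185. The beta subunits summed to 229 ± 26.8 TPM in CON and 217 ± 11.0 TPM in CDCA. Of this sum, the mean share of ITGB3 went from 9.54% to 26.4%, that of ITGB1 from 48.4% to 37.7% and that of ITGB5 from 10.2% to 6.72%. ITGB2, the leukocyte subunit, ITGB6 and ITGB7 had means under 1 TPM.

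The alpha subunits were dominated by ITGA3, which forms a laminin receptor with β1, and it fell slightly. Its CON libraries held 390, 422 and 405 TPM and its CDCA libraries 339, 323 and 332 TPM, a ratio of 0.817 (log2 fold change -0.29, FDR 0.0013). Its share of the summed alpha subunits went from 77.9% to 68.7%. In contrast, 3 subunits of receptors for fibronectin or collagen rose. ITGAV, the αv subunit, rose from 13.8, 16.4 and 15.4 TPM to 30.4, 32.6 and 30.2 TPM, at the edge of the limit for a call (log2 fold change 0.99, SE 0.07, FDR 6.7e-05). It was called higher without CON replicate 2, CDCA replicate 1 or CDCA replicate 3, and its log2 fold change lay between 0.93 and 1.04 over the 6 fits that left out a library. ITGA2, a subunit of the collagen receptor α2β1, rose from 12.4, 11.5 and 10.6 TPM to 21.1, 19.7 and 21.1 TPM (log2 fold change 0.79, FDR 0.00013). ITGA5, the alpha subunit of the classic fibronectin receptor, rose from 33.7, 35.8 and 33.2 TPM to 49.6, 50.6 and 51.8 TPM (log2 fold change 0.55, FDR 0.00011). For these 3 genes no CDCA library overlapped a CON library, and the ratios of means were 2.04, 1.80 and 1.48. The gene ID listed as ITGA2B, the platelet subunit, also rose (9.21 to 11.4 TPM, FDR 0.014), but not with the mtDNA-encoded genes left out of the totals (FDR 0.12), and the reference table names that ID GPATCH8, so its identity is uncertain. ITGA10 (2.36 TPM in CDCA, FDR 0.11) and ITGA9 (1.47 TPM in CDCA, FDR 0.70) did not pass the test. The other 5 alpha subunits that the rule took, among them the collagen receptor subunit ITGA1 (0.493 TPM), had means under 1 TPM.

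**Figure D2:**
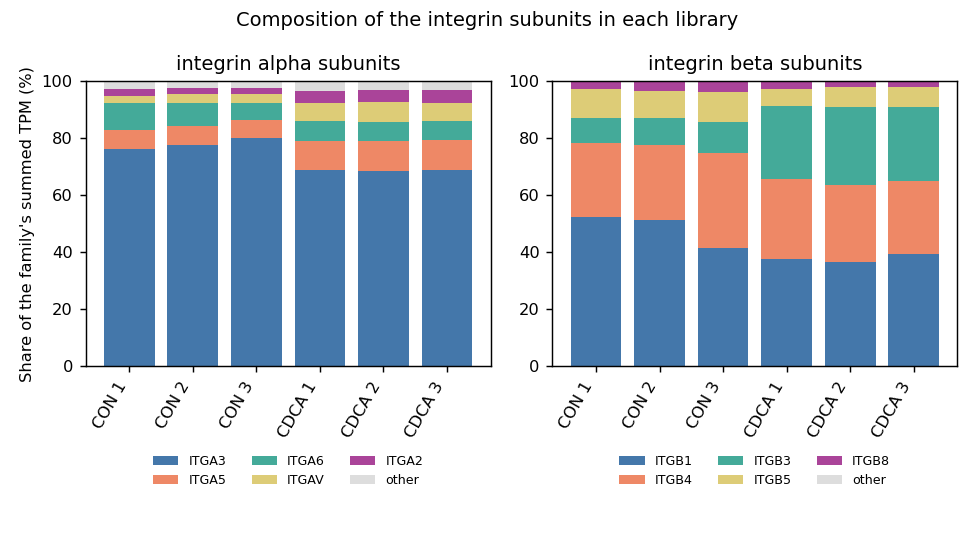
Share of the summed TPM of the family (%) held by the most abundant integrin alpha subunits and integrin beta subunits in each of the 6 libraries. ITGB3 took 8.55% to 10.7% of the beta subunits in CON and 25.7% to 27.3% in CDCA, and ITGA3 took 76.1% to 79.9% of the alpha subunits in CON and 68.4% to 69.0% in CDCA.

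LAMA3 and LAMB3, the alpha and beta chains of the hemidesmosomal laminin, both rose. LAMB3 rose from 16.2, 15.9 and 15.2 TPM to 26.2, 27.2 and 31.3 TPM (ratio 1.79, log2 fold change 0.80, SE 0.07, FDR 0.00019). LAMA3 rose from 32.7, 31.4 and 28.4 TPM to 47.0, 52.8 and 54.0 TPM (ratio 1.67, log2 fold change 0.72, SE 0.08, FDR 0.00032). No CDCA library overlapped a CON library for either chain, and neither reached the limit for a call. The ratio of LAMA3 to LAMB3 was 1.95 ± 0.0773 in CON against 1.82 ± 0.108 in CDCA, and overlapped between the groups.

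LAMC1, LAMB2 and LAMA5, chains of other laminins, did not rise. LAMC1, the gamma chain of most other laminins, was at 49.3, 48.3 and 44.3 TPM in CON against 46.1, 44.2 and 44.02 TPM in CDCA, and did not pass the test (log2 fold change -0.08, FDR 0.27). With the mtDNA-encoded genes left out of the totals, it fell by 0.23 on the log2 scale (FDR 0.012). LAMB2, a beta chain of basement membranes, fell from 3.45, 2.19 and 2.42 TPM to 0.54, 0.97 and 0.95 TPM and was called lower (log2 fold change -1.01, SE 0.17, FDR 0.0029). The size of that fall depended on how low values were handled. The ratio of the means was 0.305, lower than that of THBS1, and the log2 fold change of LAMB2 was -1.61 with a pseudocount of 0.1 TPM and -1.35 with each library rescaled to 1000000 listed TPM. Without CON replicate 1 or CDCA replicate 1 it was no longer called, with a log2 fold change of -0.87 at its smallest, and by the highest listed row alone it was -0.70. Its FDR was 0.0018 to 0.015 over these and the other alternatives. LAMA5, the alpha chain of the main laminin of adult epithelia, has no symbol in the deposited table and was found through the reference table of symbols. It fell from 28.1, 32.2 and 30.6 TPM to 23.8, 22.0 and 22.5 TPM (log2 fold change -0.40, FDR 0.0021). LAMA3 and LAMA5 were at similar levels in CON, with a ratio of 0.926 to 1.16, and LAMA3 was 1.98 to 2.40 times as abundant as LAMA5 in CDCA. The remaining chains LAMA1, LAMA2, LAMA4, LAMB1 and LAMC3 had means under 1 TPM.

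**Figure D3:**
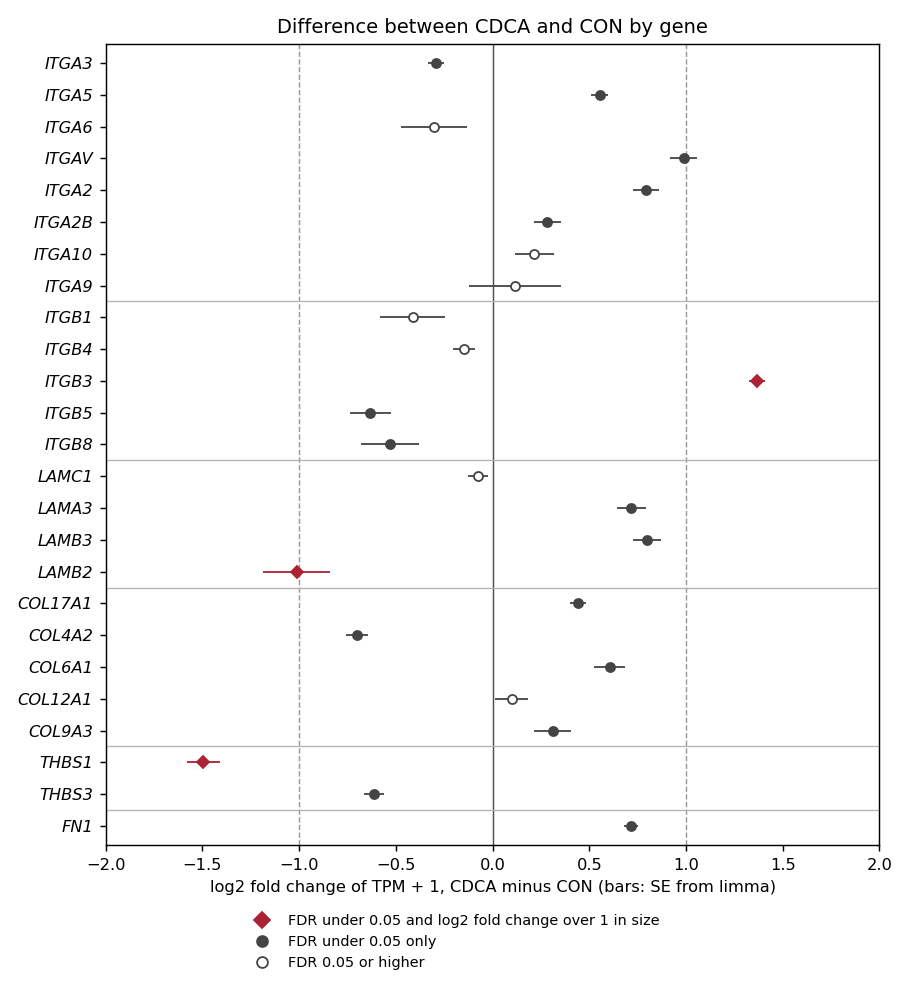
log2 fold change of TPM + 1, CDCA minus CON, for the tested members described in the text by family, with the standard error from limma as bars and dashed lines at 1 and -1. ITGB3 (1.36), LAMB2 (-1.01) and THBS1 (-1.50) lie beyond the dashed lines, and ITGAV (0.99) lies at the upper line.

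Collagen mRNA was mostly that of COL17A1, the transmembrane collagen of hemidesmosomes, which held 85.7% of the summed collagen TPM in CON and 90.3% in CDCA. COL17A1 rose from 275, 292 and 277 TPM to 384, 394 and 370 TPM (ratio 1.36, log2 fold change 0.44, FDR 0.00019). COL4A2, a chain of the collagen IV network of basement membranes, moved the other way, from 26.0, 27.2 and 28.2 TPM to 17.0, 15.3 and 16.7 TPM (ratio 0.601, log2 fold change -0.70, SE 0.06, FDR 0.00013). The ratio of COL17A1 to COL4A2 was 9.82 to 10.8 in the CON libraries and 22.2 to 25.9 in the CDCA libraries. COL4A1, the partner chain of COL4A2 and its neighbour in the RefSeq gene order of the pig genome (Sscrofa11.1), was also without a deposited symbol. It went from 3.55, 3.56 and 2.89 TPM in CON to 0.65, 1.39 and 0.61 TPM in CDCA (log2 fold change -1.22, SE 0.18, FDR 0.0015), and with it 3 members would be called lower. These values are low, as those of LAMB2 are, and no alternative fits are given for COL4A1. Within a library, COL4A2 was 7.33 to 9.75 times as abundant as COL4A1 in CON and 11.0 to 27.3 times in CDCA. COL6A1, a chain of the microfibrillar collagen VI, rose from 7.33, 7.53 and 8.59 TPM to 11.5, 12.6 and 13.0 TPM (log2 fold change 0.60, FDR 0.00094), while its partners COL6A2 and COL6A3 were at no more than 0.08 TPM in any library. COL9A3 rose from 1.77 to 2.43 TPM with an FDR of 0.031, which became 0.12 with the mtDNA-encoded genes left out of the totals and was over 0.05, up to 0.096, in 5 of the 6 fits that left out a library (all but CON replicate 2). COL12A1 did not pass the test (4.59 and 4.97 TPM, FDR 0.38).

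The fibrillar collagens of stroma were listed at low levels. COL1A1, at 0.82, 0.94 and 0.72 TPM in CON and 0.54, 0.73 and 0.56 TPM in CDCA, had the highest mean of the 49 members that were not tested, followed by COL27A1 (0.620 TPM) and COL4A4 (0.580 TPM). Of these 49 members, 34 were collagens, 31 had a mean under 0.1 TPM and 5 were listed at 0 in every library.

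Among the weakly listed collagens, the chains of collagen V, a minor fibrillar collagen, lay higher in CDCA. COL5A2 went from 0.40, 0.28 and 0.28 TPM in CON to 0.99, 0.64 and 0.72 TPM in CDCA, and COL5A3 from 0.01, 0.01 and 0.02 TPM to 0.14, 0.17 and 0.15 TPM. COL5A1 was listed at 0 in every CON library, and its CDCA libraries held 0.16, 0.41 and 0.13 TPM. COL4A4 of collagen IV lay the other way, with 0.74, 0.77 and 0.84 TPM in CON against 0.39, 0.31 and 0.43 TPM in CDCA. Of the 31 untested collagens with a value above 0, the groups did not overlap for 5 that lay higher in CDCA (COL5A1, COL5A2, COL5A3, COL11A1 and COL16A1), against 9.72% of all genes under a mean of 1 TPM, and for 6 that lay lower (COL1A2, COL2A1, COL4A4, COL11A2, COL18A1 and COL27A1), against 5.92%. Fibrillar chains were thus on both sides. A limma fit with no filter on low values held 44 of the 49 untested members. Of these 44, 3 rose (COL5A2, COL5A3 and COL16A1, with FDRs of 0.040, 0.0012 and 0.031), against 3.42% of the 13841 genes under a mean of 1 TPM in that fit and 11.5% of all 22549 genes. COL4A4 fell (FDR 0.034), against 2.21% and 9.11%. COL5A1 did not pass the test in that fit (FDR 0.056). COL5A1, COL5A3, COL16A1 and the other weak collagens named here were picked after their values were seen.

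**Figure D4:**
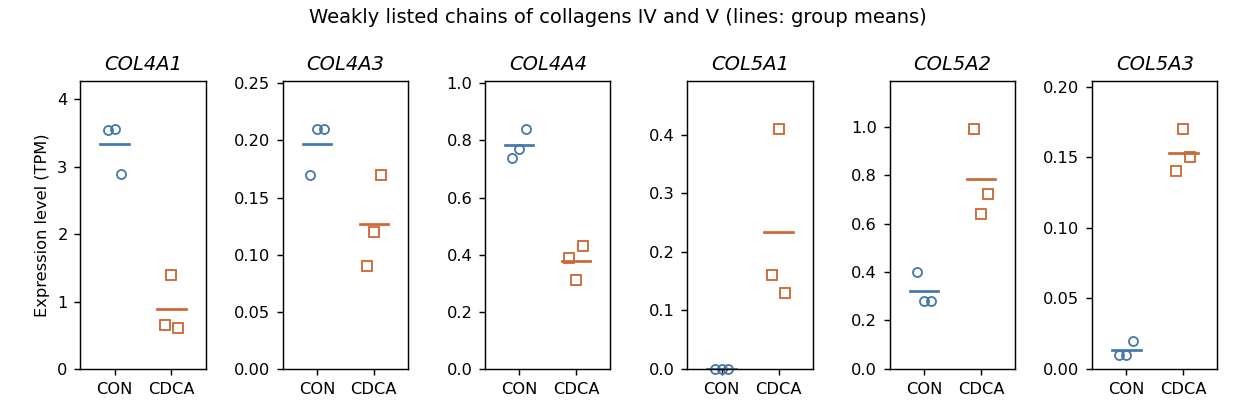
Expression level in TPM (linear axes from 0, a scale for each gene) of weakly listed chains of collagen IV and collagen V in each library, with circles for CON, squares for CDCA and lines for the group means. The 3 collagen V chains lay higher in every CDCA library than in any CON library, COL4A1 and COL4A4 lay lower, and for COL4A3 1 CDCA library (0.17 TPM) reached the lowest CON library.

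Genes that work with these receptors and matrix proteins were grouped in 8 lists by role. They held 106 genes besides the members, of which 75 were tested. Among these, 4 were called higher (MMP13, PLAU, PLAUR and SDC2) and 2 lower (ACTN1 and CCN2), against 3.51% and 3.90% of all tested genes. By the FDR alone, 24 rose and 20 fell, against 29.3% and 23.9% of all tested genes. With the mtDNA-encoded genes left out of the totals, 18 rose and 25 fell, 3 were called higher and 3 lower. The median log2 fold change of the 75 genes was 0.07.

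The largest rises among these partner genes were in pericellular proteolysis. Of 13 tested proteases and inhibitors, 7 rose and 2 fell, or 6 and 3 with the mtDNA-encoded genes left out of the totals. MMP13, a collagenase, rose from 7.88 ± 0.478 TPM to 34.2 ± 2.02 TPM, with a log2 fold change of 1.98 (SE 0.07, FDR 4.3e-06). PLAUR, the urokinase receptor, rose from 39.9 ± 3.06 to 125 ± 5.80 TPM (log2 fold change 1.62), and PLAU, urokinase itself, from 89.8 ± 7.95 to 212 ± 5.78 TPM (log2 fold change 1.23). All 3 were called higher in each of 14 alternative fits.

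Of 7 tested matricellular and other matrix proteins, 2 rose and 4 fell, against 29.3% and 23.9% of all tested genes. CCN2, a secreted matricellular protein, fell from 95.4 ± 5.22 TPM to 35.4 ± 1.29 TPM, with a log2 fold change of -1.41 (SE 0.05, FDR 6.8e-06). SPP1, osteopontin, a ligand of αvβ3, was more abundant than any member and rose from 716 ± 53.9 to 1307 ± 64.5 TPM (log2 fold change 0.87, FDR 7.4e-05). Of 6 tested genes listed as matrix receptors outside the integrins, 4 rose, against 29.3% of all tested genes. With the mtDNA-encoded genes left out of the totals, 2 rose, namely DDR2 and RPSA, the latter also a ribosomal protein. On those totals, the log2 fold change of 3 (CD44, CD47 and DDR1) lay below 0. SDC2, a syndecan, was called higher (1.77 ± 1.23 to 4.46 ± 1.33 TPM, FDR 0.040), but kept that call in only 4 of 13 alternative fits. Its FDR was 0.061 with the mtDNA-encoded genes left out of the totals, and it reached 0.11 over the fits without CON replicate 1, CON replicate 3, CDCA replicate 1 or CDCA replicate 3. DDR2, a collagen receptor kinase, rose from 1.29 to 3.13 TPM (FDR 0.0063).

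Of 19 tested linkers between integrins and actin, 5 rose and 5 fell, against 29.3% and 23.9% of all tested genes. With the mtDNA-encoded genes left out of the totals, 4 rose and 7 fell. ACTN1, an actin cross-linker of focal adhesions, fell from 66.7 ± 2.33 TPM to 28.5 ± 1.40 TPM, with a log2 fold change of -1.20 (SE 0.05, FDR 1.0e-05). TNS4, a tensin, fell from 13.2 to 6.20 TPM (log2 fold change -0.98, FDR 0.00026), and was called lower with the mtDNA-encoded genes left out of the totals (-1.12). The hemidesmosome list, which includes COL17A1, ITGA6 and ITGB4, had 7 tested genes, of which COL17A1 and KRT5 rose and PLEC fell. PLEC, the plakin that ties α6β4 to keratins, fell from 84.2 ± 3.89 to 59.0 ± 1.96 TPM (log2 fold change -0.50, FDR 0.00022), and CD151, a tetraspanin, was at 3.18 and 1.95 TPM and did not pass the test (FDR 0.092).

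Of 5 tested partner genes of the basement membrane, AGRN and HSPG2, both heparan sulfate proteoglycans, fell, and the log2 fold change of the other 3 was below 0 on both totals. Of all tested genes, 23.9% fell. AGRN fell from 14.7 to 10.7 TPM (log2 fold change -0.41, FDR 0.014), and NID2, at 3.75 and 2.13 TPM, did not pass the test (FDR 0.15). Among 13 tested genes of collagen synthesis and processing, 2 rose and 4 fell, against 29.3% and 23.9% of all tested genes. SERPINH1, the collagen chaperone, rose from 8.03 to 16.1 TPM (log2 fold change 0.93, FDR 0.00025), and PLOD2, a lysyl hydroxylase, fell from 15.7 to 8.20 TPM (log2 fold change -0.85, FDR 0.0019). Of 8 tested genes of the TGF-beta list, 3 rose and 2 fell, against the same shares. With the mtDNA-encoded genes left out of the totals, 1 rose and 4 fell. The largest differences were for SMAD2 (1.94 to 4.61 TPM, FDR 0.0017) and TGFA (3.76 to 1.74 TPM, FDR 0.0019). TGFA is a ligand of the EGF receptor rather than of TGF-beta receptors.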

How the data were processed

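RNA from 6 libraries of IPEC-J2 cells was sequenced on an Illumina instrument. Per the study's methods, transcripts were quantified by RSEM, and the authors deposited TPM values, without transcript IDs, for 31908 gene IDs. The submitters' processing notes list Bowtie 0.12.2 and mm10, a mouse build, with no role, while the gene IDs are those of the pig. The pig build and annotation release are not given in the sources used here, so no coordinates are printed. Rows were summed per gene ID. CDCA and CON were compared by the trend option of limma 3.58.1, run in R 4.3.3, on log2(TPM + 1), a scale that understates the change of low genes, with Benjamini-Hochberg adjustment over all genes averaging 1 TPM or more. No count test was run, since the values are not counts. Where a partner gene had no deposited symbol, the reference table of symbols was used.

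The members and gene lists were chosen with earlier results of these data known. Named genes were the called members, THBS1, FN1, the 3 largest changes of each family, other tested members, the 3 most abundant untested members, and the called genes and 2 largest changes of each partner list. LAMA5, COL4A1, KRT5, HSPG2, the cell type markers and the other weakly listed genes were named outside that rule. Same-numbered CON and CDCA libraries were checked for pairing by the correlation of their deviations from the group means, which was -0.035, -0.092 and -0.051, so they were not treated as pairs. The alternatives were another pseudocount, filter, scaling, row choice and symbol table, the replicate block, and leaving out each library or the most abundant member of a family. The steps were tested on simulated data. No sequences were used here. Some items are not reported here, though the counts and sums include them.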

Additional observations from a re-analysis of the deposited data

How the results depend on the processing

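THBS1 and ITGB3 kept their calls in all 14 alternative fits tried, with log2 fold changes of -1.65 to -1.43 and 1.22 to 1.41. The main counts were 1 member called higher and 2 lower, and 4 partner genes called higher and 2 lower. With a pseudocount of 0.1 TPM, 2 members were called higher, and 9 partner genes higher and 4 lower. Calls also grew over all 8708 tested genes, from 306 higher and 340 lower to 509 and 505. With each library rescaled to 1000000 listed TPM, chosen after seeing the data, 2 members and 8 partner genes were called higher. Of all 10947 genes tested in that fit, 523 were called higher and 481 lower. With a minimum mean of 5 TPM, or with the highest listed row, 1 member was called lower. With a library left out, 1 to 2 members were called higher (2, with ITGAV, without CON replicate 2, CDCA replicate 1 or CDCA replicate 3) and 1 to 2 lower (1, without LAMB2, without CON replicate 1 or CDCA replicate 1).

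Over all tested genes, 306 were called higher and 340 lower, and 221 and 462 with totals without the mtDNA-encoded genes. On those totals, the ratio of summed TPM, CDCA to CON, was 0.832 for integrin alpha subunits (0.926 as deposited), 1.41 for laminins (1.57), 1.16 for collagens (1.29), 0.383 for thrombospondins (0.426) and 1.48 for FN1 (1.64). Without its most abundant member, the ratio was 1.31 for alpha subunits, 1.16 for beta subunits (0.951 with ITGB1), 1.29 for laminins, 0.869 for collagens and 0.646 for thrombospondins. It was 1.46 for laminins by reference symbols, which add LAMA5, and 1.46 for the highest listed row of FN1.

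COL12A1 changed sign with totals without the mtDNA-encoded genes (-0.029) and with the highest listed row (-0.044), and ITGA9 without CDCA replicate 1, with -0.148 to 0.284 over the fits that left out a library. Neither passed the test in any setting. The replicate number is shared between groups in the labels only; with the replicate block in the fit, 1 member was called higher and 2 lower, the FDR by limma of ITGB4 was 0.048 and that of COL9A3 0.082. Without read counts per gene, no counting error is given, and weak genes are the least certain.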

Other observations

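Of 5 tested epithelial markers, 4 rose by limma, against 29.3% of all tested genes. These were CLDN4, a tight junction claudin, from 225 to 807 TPM, EPCAM from 122 to 160 TPM, KRT18 from 65.6 to 75.2 TPM and TJP1 from 21.5 to 25.1 TPM. CDH1 (0.397 TPM in CON, 0.533 TPM in CDCA) and VIL1 (0.357 and 0.137 TPM) were not tested and overlapped between the groups. KRT8 lay lower in CDCA, at 226 and 208 TPM (log2 fold change -0.12, FDR 0.18). With the mtDNA-encoded genes left out of the totals, CLDN4 and EPCAM rose, KRT18 (FDR 0.41) and TJP1 (FDR 0.38) did not pass the test, and KRT8 fell (log2 fold change -0.27, FDR 0.0067). VIM was at 1986 and 1919 TPM (FDR 0.43, and 0.0091 with a log2 fold change of -0.20 on those totals). PECAM1, an endothelial marker, was at 1.92 TPM in CON and 1.22 TPM in CDCA (FDR 0.025). The other 4 endothelial markers were under 1 TPM, among them KDR, which lay higher in CDCA (0.40, 0.38 and 0.51 TPM in CON, 0.64, 0.79 and 0.84 TPM in CDCA, FDR 0.097 with no filter on low values). Of 6 leukocyte markers, CD79A was at 2.29 and 3.24 TPM, with overlap between the groups, and the other 5 had means under 1 TPM. ITGAM went from 0.40, 0.50 and 0.58 TPM to 1.31, 1.23 and 1.17 TPM (FDR 0.014 with no filter on low values), ITGAL from 0.143 to 0.273 TPM (FDR 0.14 in that fit), and PTPRC was at no more than 0.01 TPM in any library.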
